A study of Arabidopsis thaliana with 24 samples.

Results

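In all, 10 genes of the small RNA pathways of Arabidopsis thaliana were followed through the 24 libraries, out of 27782 genes listed. They were chosen by locus: the Dicer genes DCL1 (AT1G01040), DCL2 (AT3G03300), DCL3 (AT3G43920) and DCL4 (AT5G20320), the double-stranded RNA binding partner gene HYL1 (AT1G09700), the Argonaute genes AGO1 (AT1G48410) and AGO2 (AT1G31280), the RNA-dependent RNA polymerase genes RDR2 (AT4G11130) and RDR6 (AT3G49500), and SGS3 (AT5G23570). All 10 were listed and passed the filter on low counts in every comparison. The choice was made with earlier results of these data known. Messenger RNA came from whole seedlings grown on plates for 14 days, all in the Col0 background, with 3 libraries in each of 8 groups, which the study calls biological triplicates. In batches 1 to 3, labelled 2018, the groups were the insertion mutant dne1-1, the lines OE1 and OE2, which express DNE1 fused to GFP under the 35S promoter, and wild type (WT). Batches 4 to 6, labelled 2019, held libraries labelled vcs-6 and their own WT. Batches 7 to 9, also 2019, held a line that expresses GFP-DNE1 with the D153N substitution from the 35S promoter, here the D153N line, and its own WT. The 35S promoter, from cauliflower mosaic virus, is active in most plant tissues, and the D153N substitution was represented by 1 line.

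In plants, Dicer enzymes cut double-stranded RNA into small RNAs, Argonaute proteins carry these to matching transcripts or loci, and RNA-dependent RNA polymerases make new double-stranded RNA from a single-stranded template. DCL1 with its partner HYL1 makes microRNAs, most of which act through AGO1. DCL4 makes trans-acting siRNAs from templates that SGS3 stabilizes and RDR6 copies, and DCL2 can act in its place. RDR2 and DCL3 belong to the nuclear branch that directs DNA methylation, and AGO2 takes part in antiviral defence. VARICOSE (VCS) is a scaffold of the mRNA decapping complex and DNE1 is an endoribonuclease associated with it; transcripts that are not decayed in the cytoplasm can become RDR6 templates in Arabidopsis.

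Of the 10 genes, AGO1, DCL1 and AGO2 are known to be targets of the microRNA families miR168, miR162 and miR403. Their sites are shown because they tie these 3 members to the microRNA branch. The search covered miR168a-5p, miR168b-5p, miR162a-3p, miR162b-3p and miR403-3p, and no other mature form of these families. Among the transcripts of the 10 genes, matches to these forms with up to 3 mismatches were found in AGO1, DCL1 and AGO2 only. They are written 5′ to 3′ as DNA letters from RefSeq, build TAIR10.1, with the seed (bases 2 to 8) of the microRNA and the bases facing it in capitals.
miR168a-5p: tCGCTTGGtgcaggtcgggaa
AGO1 site: ttcccgagctgcaTCAAGCTa
miR162a-3p: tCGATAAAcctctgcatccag
DCL1 site: ctggatgcagaggTaTTATCGa
miR403-3p: tTAGATTCacgcacaaactcg
AGO2 site: ggagtttgtgcgtGAATCTAa
The AGO1 site lies in the coding sequence on the minus strand at chr1:17891529-17891549 and pairs with 18 of the 21 bases of miR168a-5p, 5 of them among the 7 of the seed, with G:U pairs counted as mismatches. The DCL1 site is coding, spans an exon junction within chr1:27522-27627 on the plus strand, and pairs with all 21 bases around 1 extra transcript base, the lower-case letter inside the capitals. It is present in 1 of the 2 annotated DCL1 transcripts. The other transcript is spliced differently there and pairs with 18 of the 21 bases. The AGO2 site lies in the 3' UTR on the plus strand at chr1:11185223-11185243 and pairs with 20 of 21 bases, the seed in full. Copies miR168b-5p and miR162b-3p have the same sequences as the forms shown. A match describes the letters only, and mature microRNAs were not measured in these libraries.

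Per length, AGO1 was the most abundant of the 10 in WT seedlings. In WT of batches 1 to 3 it stood at 3314 ± 557 normalized counts per kilobase of exon (SD, n = 3). RDR6 (296 ± 47.3), HYL1 (289 ± 46.9) and DCL2 (282 ± 24.1) followed with overlapping spreads, then DCL4 at 220.5 ± 11.3. DCL3 (129 ± 23.7), AGO2 (114 ± 14.2), SGS3 (108 ± 21.5) and DCL1 (106 ± 14) did not differ beyond their spread. RDR2 had the lowest mean in these libraries, 87.5 ± 8.19, with a spread that overlapped those of DCL1 and SGS3. In WT of batches 4 to 6 the mean of AGO2 (78.8 ± 4.96) was below that of RDR2 (81 ± 12.1), again with overlapping spreads. All further levels are normalized counts per gene, without division by length. Levels were scaled separately for 2018 and 2019 and are compared only within a year.

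**Figure D1:**
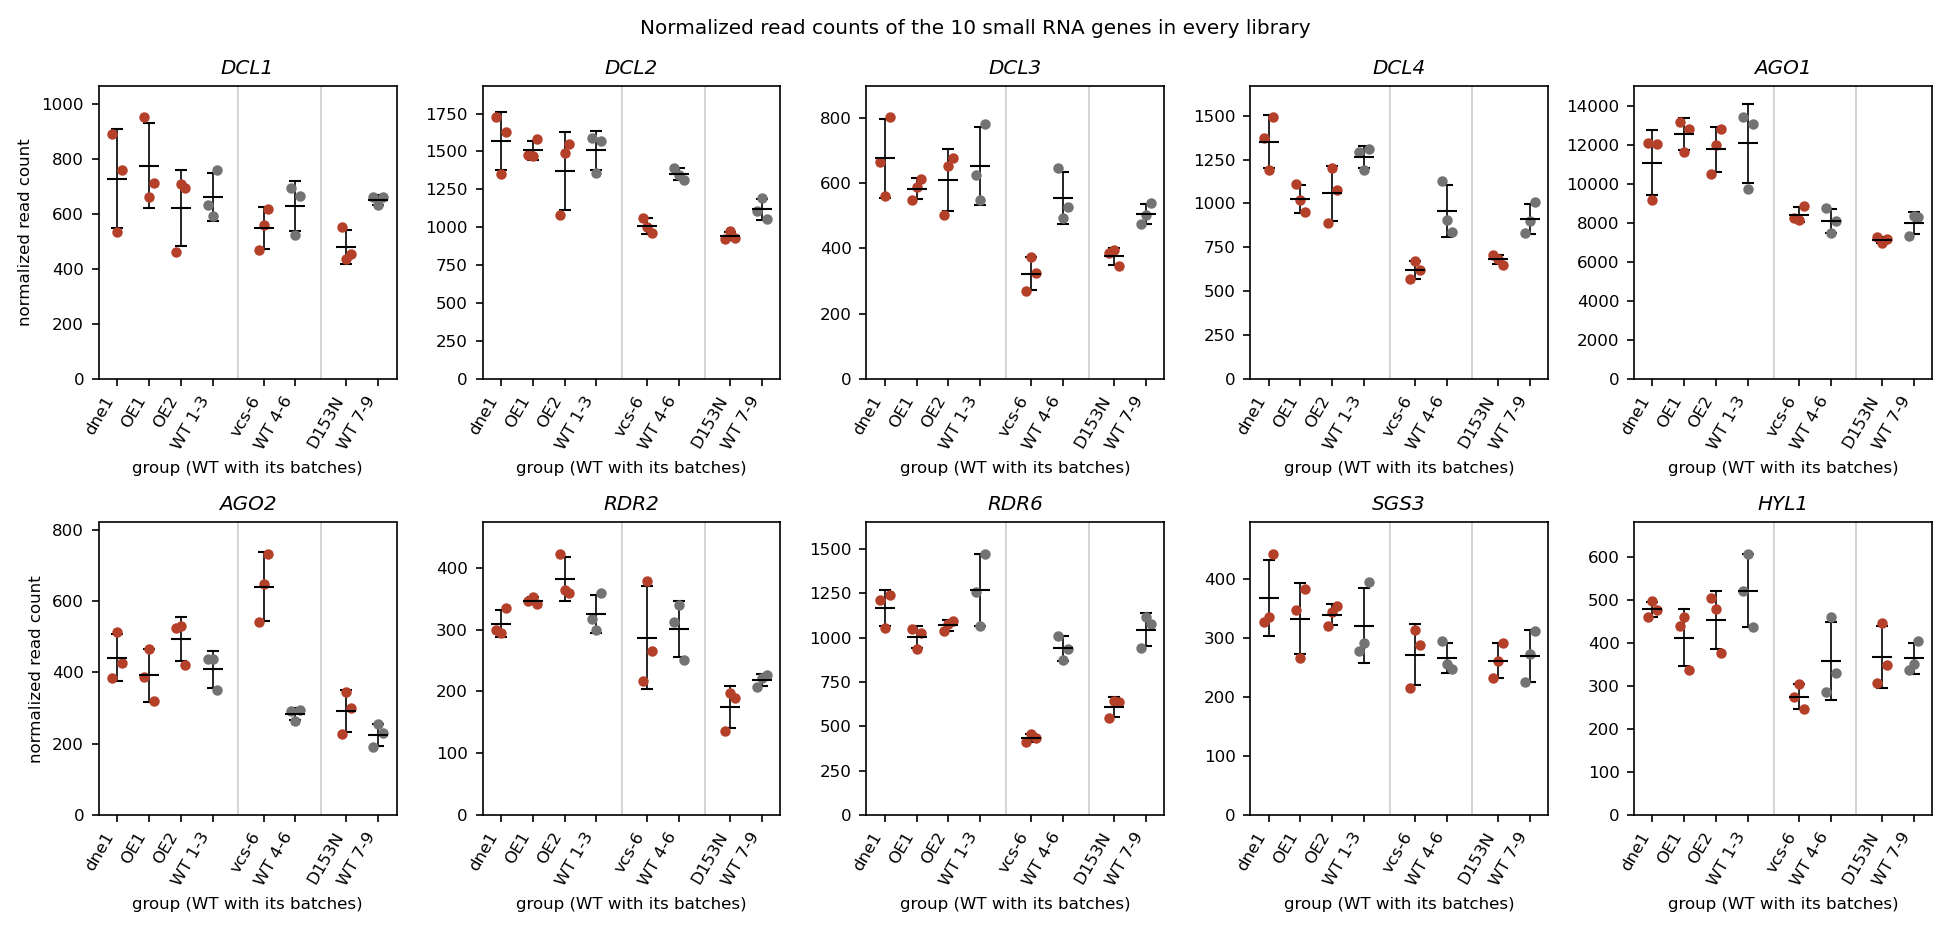
Normalized read counts (y axis, from 0) of the 10 genes in every library, by group (x axis); points are libraries, bars the mean ± SD of 3, red for the lines and grey for WT with its batch numbers. In the libraries labelled vcs-6 AGO2 lay above its WT at 541 to 732 and RDR6 below at 415 to 459.

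Depth lay between 36714564 and 70561391 recovered reads in the libraries of 2018, and between 22611653 and 53908600 in those of 2019. DNE1 checked the labels of its lines: it averaged 309 ± 50.1 in dne1-1, 21228 ± 2138 in OE1 and 19980.1 ± 2005 in OE2, against 1462 ± 146 in WT, and 15781 ± 3211 in the D153N line against 819.7 ± 29.6 in its WT. VCS was higher in the libraries labelled vcs-6 (8115 ± 632) than in their WT (5282 ± 599.8), and a gene-level count cannot check whether that transcript is intact, so these are called by their label throughout. Changes are log2 ± SE from limma on log2(normalized count + 1), and a gene was called when its p, adjusted by the Benjamini-Hochberg method over all genes tested, was under 0.05.

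The comparison of the libraries labelled vcs-6 with WT asked how the 10 genes stand in plants labelled as a mutant of the decapping scaffold gene. AGO2 rose 2.24-fold, and RDR6, DCL3, DCL4 and DCL2 fell. The genes of the microRNA branch, DCL1, HYL1 and AGO1, did not pass the test, nor did SGS3 or RDR2. In all 1 member was higher and 4 were lower, against a background of 26.7% of genes called higher and 24.8% lower (51.5% either way), so that 5 of 10 is near the share over all genes. The median change of the members was -0.27, against 0.00 over all genes tested.

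AGO2, which binds siRNAs in antiviral defence, had 541, 649 and 732 normalized counts in the libraries labelled vcs-6, against 293, 263 and 295 in WT. Every library labelled vcs-6 lay above every WT library, as for 31.3% of all genes; groups apart and lower made up 30.6%. The change was 1.16 ± 0.15 (adjusted p = 0.00047), and the authors' deposited table gives 1.15. RDR6, the polymerase that copies trans-acting siRNA templates, had 415, 459 and 436 in the libraries labelled vcs-6, against 1009.8, 874 and 934 in WT. The groups were separate, and the level was less than in any other group of 2019. The change was -1.10 ± 0.11 (adjusted p = 0.00018).

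Of the Dicer genes DCL2, DCL3 and DCL4 fell and DCL1 did not pass the test; differences between genes were not tested. DCL3, which makes the siRNAs of DNA methylation, had 271, 374 and 324 in the libraries labelled vcs-6 against 645, 494 and 528 in WT, a change of -0.78 ± 0.17 (adjusted p = 0.0058). DCL4, the main Dicer of trans-acting siRNAs, had 569.8, 669.7 and 620.4 in the libraries labelled vcs-6 against 1127, 905 and 839 in WT, a change of -0.62 ± 0.14 (adjusted p = 0.008). DCL2, which makes longer siRNAs that can set off further siRNA production, had 1064, 1004 and 959.8 in the libraries labelled vcs-6 against 1389, 1345 and 1313 in WT, a change of -0.42 ± 0.10 (adjusted p = 0.0084). For all 3 the groups did not overlap. DCL1, the microRNA Dicer, had 467, 561 and 618 in the libraries labelled vcs-6 against 694, 524 and 666 in WT, where the groups overlapped (-0.19 ± 0.16, adjusted p = 0.35).

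DCL1 and DCL3 overlap genes on the opposite strand, and DCL1, DCL2 and HYL1 overlap genes on the same strand; the strand setting of the counting is not given in the sources used here, so these values are uncertain. The other values of this comparison were small or spread. AGO1, the Argonaute of most microRNAs, averaged 8406 ± 385 in the libraries labelled vcs-6 and 8103 ± 627 in WT (0.05 ± 0.11). SGS3 averaged 272 ± 50.9 in the libraries labelled vcs-6 and 266 ± 25.3 in WT (0.02 ± 0.18). RDR2, of the nuclear siRNA branch, ranged over 217 to 378 in the libraries labelled vcs-6 and 252 to 339.8 in WT (-0.10 ± 0.23). HYL1 averaged 276 ± 29 in the libraries labelled vcs-6 and 359 ± 90.6 in WT (-0.36 ± 0.20, adjusted p = 0.17). SGS3 and RDR6 act in the same step, and their changes were 0.02 and -1.10.

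Some markers of cell types moved in the same libraries, where 26.7% of all genes were called higher and 24.8% lower. Dividing-cell markers (4 of 7 called higher, 1 lower) summed to 5952 to 7152 in the libraries labelled vcs-6 and 2824 to 3438 in WT. They did not move together. CDKB2;2 averaged 2398 ± 181 in the libraries labelled vcs-6 and 543 ± 57.1 in WT. MCM2 was called lower (359 ± 50.3 against 533 ± 39.5), and KNOLLE was not called (248 ± 58.4 against 238 ± 44). Of leaf photosynthesis markers 5 of 5 were called lower, with sums of 441987 to 613071 in the libraries labelled vcs-6 and 1211000 to 1453170 in WT. Of 4 root markers 1 was called higher, near the share over all genes. Their sums were 2365 to 4716 in the libraries labelled vcs-6 and 1618 to 2381 in WT. PRP3 had the highest counts of these 4, 3095 ± 1097 in the libraries labelled vcs-6 and 1468 ± 338 in WT. The means of COBL9 and EXPA7 were also higher than in WT, and that of RHD6 was lower (94.7 ± 26 against 144 ± 22.3). Of 4 flower markers 1 was tested, PI, which passed the filter on low counts through the libraries labelled vcs-6 and was called higher; their sums were 45.7 to 50.6 in the libraries labelled vcs-6 and 18.6 to 32.4 in WT. No marker of the 4 lists was at 0 in these libraries. Their part in the changes of the 10 genes was not tested, and in whole seedlings fewer cells of a type and less RNA per cell cannot be told apart.

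**Figure D2:**
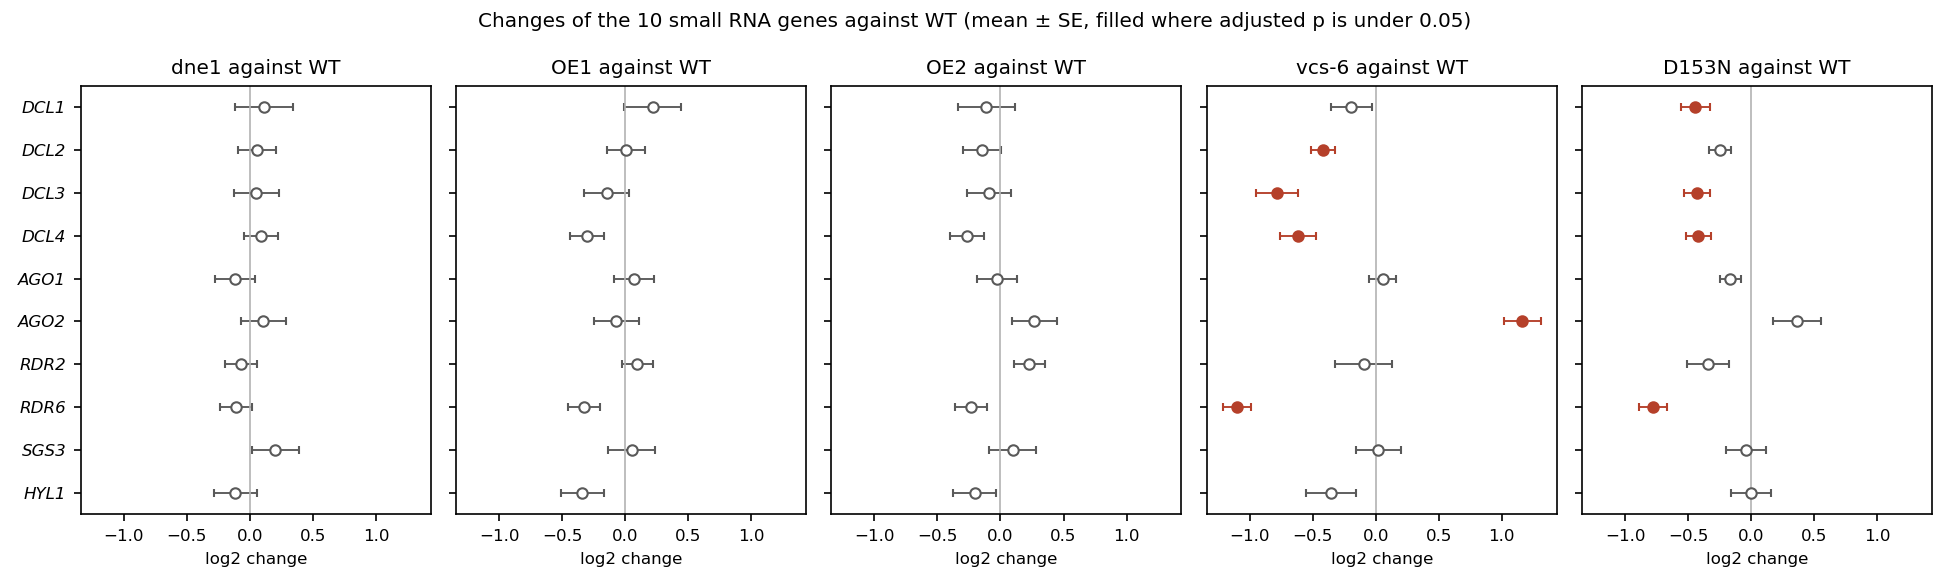
Log2 change (x axis) of each gene (y axis) in each line against WT, as mean ± SE, filled where the adjusted p is under 0.05. RDR6 was called in the libraries labelled vcs-6 (-1.10) and in the D153N line (-0.78), and no gene was called in dne1-1, OE1 or OE2.

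The next comparison, of the D153N line with its WT, asked how the genes stand when DNE1 with a changed residue is expressed in excess. RDR6, DCL1, DCL3 and DCL4 fell, and no member rose. That is 4 of 10 lower and 0 higher, against 6.84% of all genes called lower and 9.09% higher (15.9% either way). Because the members were chosen with earlier results of these data known, these shares are no test of enrichment. RDR6 had 547, 641 and 639 in the D153N line, against 939.7, 1118 and 1076 in WT. The groups were separate, and the change was -0.78 ± 0.11 (adjusted p = 0.0087), with -0.77 in the authors' deposited table.

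Of the Dicer genes DCL1, DCL3 and DCL4 fell in the D153N line and DCL2 did not pass the test. DCL1 had 552, 436 and 456 in the D153N line against 662, 631 and 661 in WT (-0.44 ± 0.11, adjusted p = 0.043). DCL3 had 386, 396 and 345 in the D153N line against 475, 503 and 538 in WT (-0.43 ± 0.10, adjusted p = 0.038). DCL4 had 707, 684 and 651 in the D153N line against 834, 898 and 1005 in WT (-0.42 ± 0.10, adjusted p = 0.035). In each gene all 3 libraries of the D153N line lay below all 3 of WT. These 3 calls are close to the threshold: DCL1 had an adjusted p of 0.063 with the batch as a block, DCL3 0.077 and DCL4 0.072, while RDR6 remained called (0.018). Without WT library 7, 8 or 9 or D153N library 14 or 15, RDR6 was the 1 member called, and adjusted p reached 0.14 for DCL1, 0.13 for DCL3 and 0.12 for DCL4. DCL2 differed by -0.25 ± 0.08 (adjusted p = 0.091), also without overlap, and was not called by limma. It was called in 0 of 10 alternatives. The authors' deposited table gives DCL2 a change of -0.248 with an adjusted p of 0.0228, which is under the threshold. Whether DCL2 counts as lower in the D153N line thus depends on the analysis. The same table gives adjusted p of 0.0318 for DCL1, 0.0318 for DCL3 and 0.0156 for DCL4, under the threshold. The calls of these genes likewise depend on the analysis.

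The other members were not called in the D153N line. AGO1 averaged 7123 ± 145 in the D153N line and 7992 ± 585 in WT (-0.16 ± 0.09, adjusted p = 0.23), and RDR2 averaged 174 ± 33.7 in the D153N line and 218 ± 9.39 in WT (-0.34 ± 0.17, adjusted p = 0.2). Both had groups that did not overlap, lower in the D153N line, which held for 19.5% of all genes tested and for 7 of the 10 members. AGO2 had 229, 346 and 300.5 in the D153N line against 191, 254 and 229.6 in WT, where the groups overlapped (0.36 ± 0.19, adjusted p = 0.22). SGS3 (-0.04 ± 0.16) and HYL1 (-0.00 ± 0.16) overlapped as well. Of 7 dividing-cell markers 4 were called higher and 0 lower, against 9.09% of all genes higher and 6.84% lower. Their sums were 4442 to 5385 in the D153N line and 2513 to 2621 in WT. Of the other markers, 0 of 5 leaf photosynthesis, 0 of 4 root and 0 of 4 flower markers were called, against 15.9% of all genes. Their part in the changes was not tested.

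Overexpression of unaltered DNE1 called no member. In OE1 0 of 10 passed, against 0.139% of genes; before adjustment 1488 of 21631 genes had p under 0.05. In OE2 0 of 10 passed against 0.171%, with 1378 genes before adjustment. RDR6 had 1047, 935 and 1029 in OE1 and 1036, 1077 and 1092 in OE2, against 1259, 1067 and 1472 in WT. OE1 lay below every WT library, while OE2 overlapped WT. The differences were -0.32 ± 0.13 in OE1 (adjusted p = 0.63) and -0.23 ± 0.13 in OE2 (adjusted p = 0.84).

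DCL4 was the other member with separate groups in OE1. It had 1109, 1017 and 951 in OE1 and 891, 1202 and 1079 in OE2, against 1296, 1190.5 and 1309 in WT, with differences of -0.30 ± 0.13 and -0.27 ± 0.13. RDR2 had 422, 363 and 359 in OE2, against 317, 299.7 and 359 in WT. The lowest OE2 library (359.2) and the highest WT library (358.9) nearly touched, with a difference of 0.23 ± 0.12 (adjusted p = 0.84). Groups that did not overlap and were lower made up 5.35% of all genes in OE1, and those higher 6.13% in OE2. The mean of both lines against WT also called 0 members (0.365% of genes), with RDR6 at -0.28 ± 0.11 and DCL4 at -0.29 ± 0.12. OE1 against OE2 called 0 members and 0 of 21631 genes, where 152 had p under 0.05 before adjustment, DESeq2 found 2 and edgeR 0.

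In dne1-1, where DNE1 counts were reduced but not absent, 0 of 10 members were called, against 0.0185% of genes (4 of 21631); before adjustment 352 had p under 0.05. The members' changes ran from -0.12 for AGO1 to 0.20 for SGS3, with standard errors of 0.12 to 0.23. RDR6 had 1209.6, 1052 and 1237 in dne1-1, against the WT values given above. AGO2 had 384, 514 and 428 in dne1-1 against 439, 439 and 350.0 in WT, and the groups overlapped WT for all 10 genes. The lines of batches 1 to 3 share their WT libraries, so their values are not independent of each other.

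The changes were then set against each other, each relative to its own WT. AGO2 changed more in the libraries labelled vcs-6 than in the D153N line, by 0.80 ± 0.25 (adjusted p = 0.023), the 1 member called of 10, against 26.3% of genes (13.3% higher). That call was lost on leaving out any of 4 libraries: WT library 5, the library labelled vcs-6 with 732 AGO2 counts, WT library 8 or D153N library 13, with adjusted p of 0.052, 0.061, 0.064 and 0.067. RDR6 differed by -0.33 ± 0.16 (adjusted p = 0.14) between these lines and was not called.

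Against the mean of OE1 and OE2, 3 members differed in the libraries labelled vcs-6, 1 higher and 2 lower, against 35.5% of genes (18.4% higher and 17.1% lower). They were AGO2 by 1.06 ± 0.23 (adjusted p = 0.0015), RDR6 by -0.82 ± 0.15 (adjusted p = 0.00025) and DCL3 by -0.67 ± 0.21 (adjusted p = 0.02). DCL3 lost its call without WT library 2, WT library 4 or the library labelled vcs-6 with 271 DCL3 counts, where adjusted p was 0.063, 0.066 and 0.066, and with library size as the only scaling (0.057). Without OE2 library 1 DCL2 was called as well (adjusted p = 0.011). The D153N line differed from the mean of OE1 and OE2 in 0 of 10 members, against 2.15% of genes; before adjustment 3416 had p under 0.05. RDR6 came nearest at -0.50 ± 0.15 (adjusted p = 0.088), and was called with the batch as a block (0.04), by DESeq2 (0.031) and without WT library 3 (0.023).

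**Figure D3:**
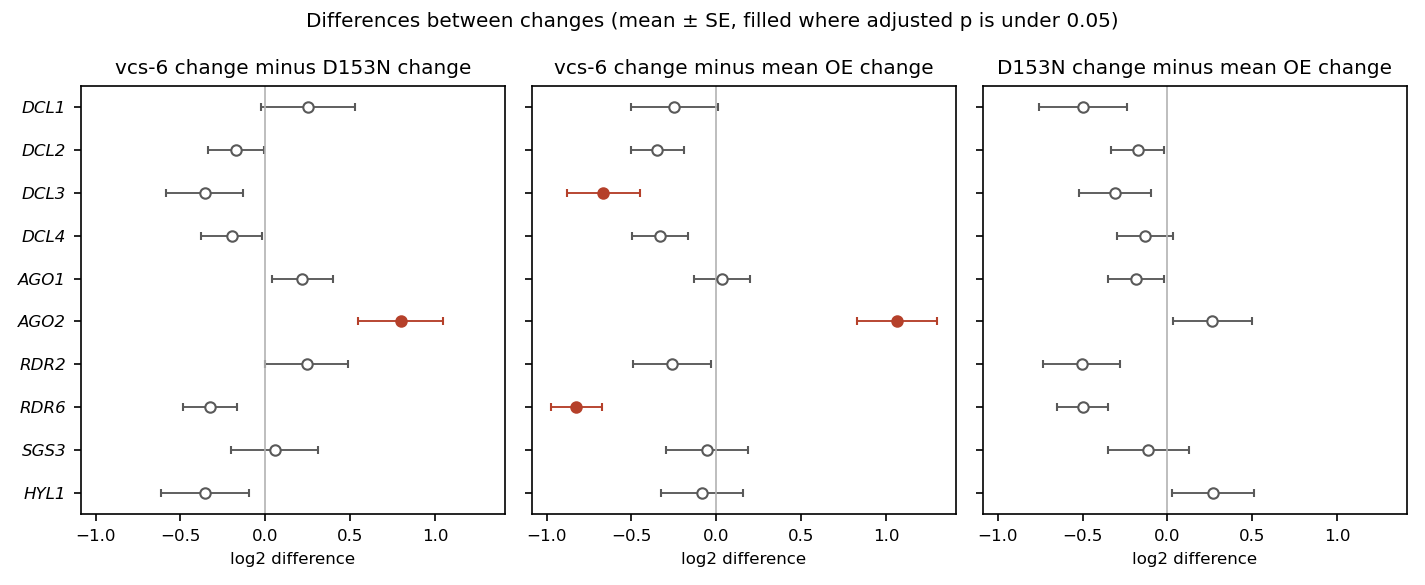
Difference between the log2 changes of 2 lines (x axis, mean ± SE) for each gene (y axis), filled where the adjusted p is under 0.05. AGO2 was called in both panels with the libraries labelled vcs-6, at 0.80 and 1.06, and no gene was called in the panel of the D153N line minus the mean of OE1 and OE2.

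Over the 24 libraries, with each library set against the mean WT of its batches, DCL3, DCL4 and RDR6 varied together: Pearson's r was 0.90 for DCL3 with RDR6, 0.89 for DCL3 with DCL4 and 0.86 for DCL4 with RDR6. DCL2 went with them, with r of 0.83 for DCL3, 0.80 for RDR6 and 0.78 for DCL4. AGO2 ran the other way, with r of -0.77 for RDR6, -0.75 for DCL3 and -0.63 for DCL4, and -0.78 for DCL2. These libraries share groups, WT controls and scaling, so the values describe the pattern only. The genes most like AGO2 among 20768 were MSL10 (0.95), a mechanosensitive channel gene, FBA6 (0.94), an aldolase gene, and AT5G61520 (0.94). For AGO1 they were AIR9 (0.84), AT3G63070 (0.83) and DAL1 (0.82), for DCL1 AT2G37840 (0.91), AT4G17150 (0.89) and LUH (0.88), and for SGS3 AT1G71240, AT1G04390 and AT5G65490 (all 0.71).

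The other genes of the small RNA pathways were taken from a list of 34. In the libraries labelled vcs-6, 4 of 33 tested rose and 8 fell, against 26.7% of all genes higher and 24.8% lower, so the share of this list was below the background for rises and near it for falls. The Argonaute genes of the list went in both directions. AGO9, of the germline, averaged 228 ± 53.3 in the libraries labelled vcs-6 and 14.8 ± 5.73 in WT, where it had 8 to 17 reads, a change of 3.91 ± 0.33 (adjusted p = 9e-05). The lowest of these WT libraries had 8.63 normalized counts. AGO9 thus met the filter of 10 normalized counts in 3 libraries only through the group where it is high, so its call is no support. AGO3, the neighbour of AGO2, averaged 436 ± 53.9 in the libraries labelled vcs-6 and 145 ± 41.8 in WT (1.62 ± 0.23). AGO4, which acts in siRNA-directed DNA methylation and is named here after its values were seen, averaged 1319 ± 224 in the libraries labelled vcs-6 and 2463 ± 172 in WT (-0.91 ± 0.14, adjusted p = 0.0014). AGO6 (-0.36 ± 0.20), AGO7 (0.14 ± 0.23) and AGO10 (-0.24 ± 0.10) were not called, and AGO8 was not tested. AGO5, the other Argonaute gene among the 4, had 13 to 35 reads in the libraries labelled vcs-6 and 4 to 7 in WT. It reached the filter of 10 normalized counts only through the group where it is high, so its call as higher (1.33 ± 0.42) is no support, and that call was lost without WT library 4 (adjusted p = 0.065) or WT library 6 (adjusted p = 0.089). NRPD2, a subunit shared by the plant polymerases of siRNA-directed methylation, rose by 0.87 ± 0.20, with 21% of its 31-base words shared with other transcripts, which makes the value uncertain.

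Among the falls, the double-stranded RNA binding protein gene DRB3 averaged 157 ± 23 in the libraries labelled vcs-6 and 672 ± 42.3 in WT (-2.10 ± 0.15, adjusted p = 4.6e-05). NRPE1, the largest subunit of RNA polymerase V, averaged 161 ± 12.6 in the libraries labelled vcs-6 and 387 ± 52.7 in WT (-1.26 ± 0.16). SDN1, a nuclease that degrades small RNAs, changed by -1.20 ± 0.19 and overlaps a gene on the opposite strand. DRB5 changed by -1.02 ± 0.24.

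In the D153N line 5 of 32 tested genes fell and 0 rose, against 6.84% of all genes lower and 9.09% higher. NRPE1 averaged 202 ± 27.3 in the D153N line and 430.0 ± 64.3 in WT (-1.08 ± 0.16, adjusted p = 0.0091). ABH1, the large subunit of the nuclear cap-binding complex, averaged 644 ± 18.9 in the D153N line and 989 ± 28.5 in WT (-0.62 ± 0.08, adjusted p = 0.0067). SE, a partner of DCL1, changed by -0.42 ± 0.10 and HST, an exportin homologue, by -0.42 ± 0.11. Both lost their call with the batch as a block (adjusted p = 0.06 for SE and 0.058 for HST) and without WT library 7, 8 or 9 or D153N library 13 or 15, where adjusted p reached 0.13 for SE and 0.15 for HST, and with library size as the only scaling (adjusted p = 0.13 for SE and 0.14 for HST). In OE1, OE2 and dne1-1 0 of 33 were called, against 0.139%, 0.171% and 0.0185% of all genes. With shares this low, 0 calls in 33 genes say nothing about this list.

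**Figure D4:**
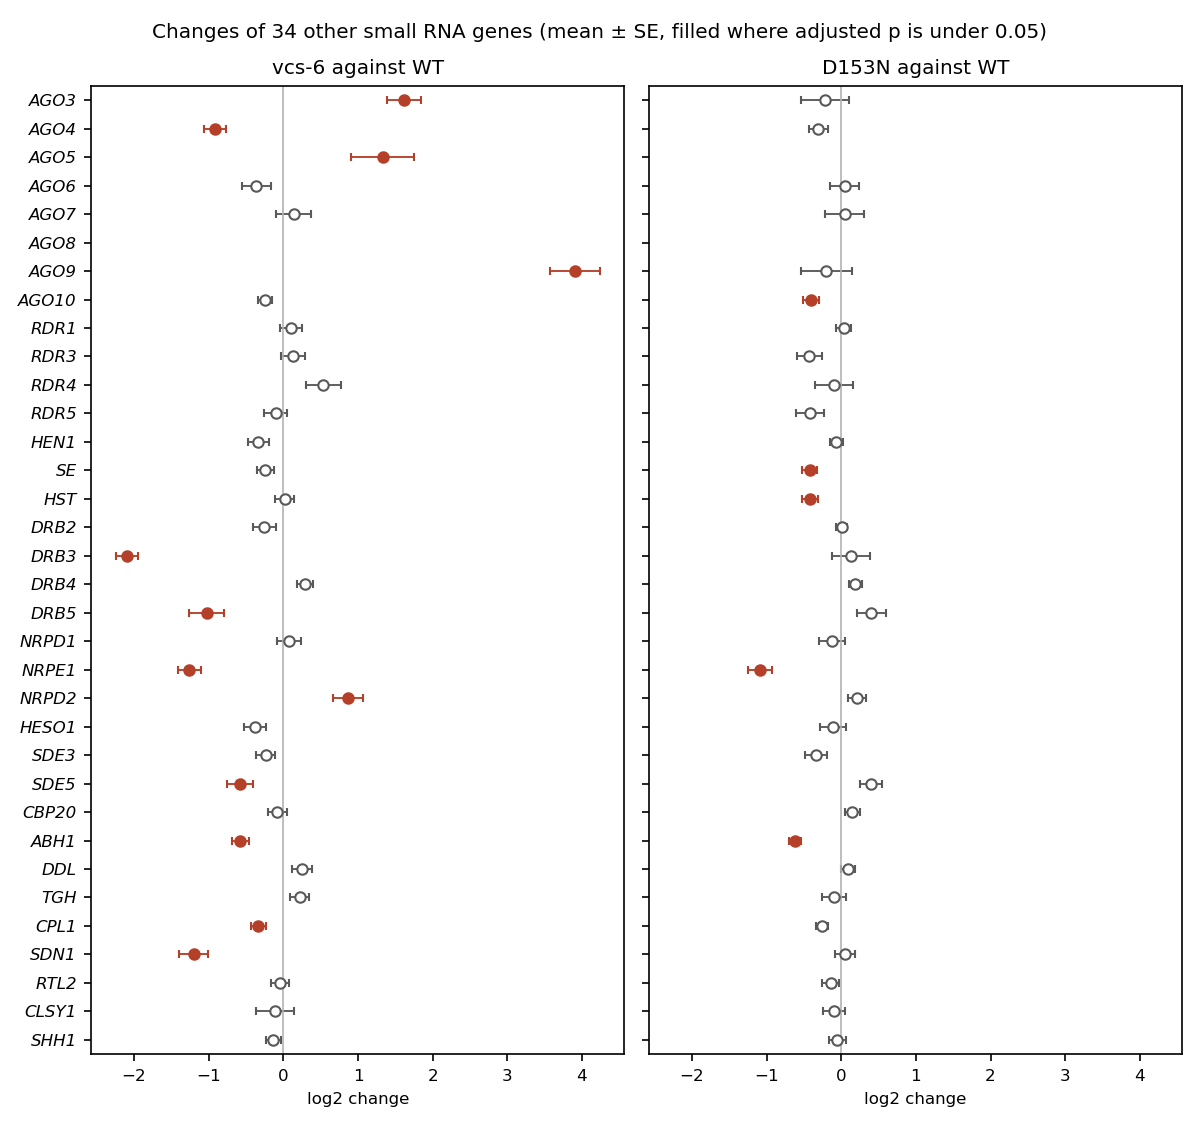
Log2 change (x axis, mean ± SE) of the 34 other genes of small RNA pathways (y axis) in the libraries labelled vcs-6 and in the D153N line against WT, filled where the adjusted p is under 0.05; untested genes have no point. AGO9 stands at 3.91 in the libraries labelled vcs-6 and passed the filter on low counts only through them. NRPE1 is low in both panels (-1.26 and -1.08).

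The loci that give rise to trans-acting siRNAs are templates of RDR6. Of 6 tested, TAS1B alone was called, lower in the libraries labelled vcs-6, where 24.8% of all genes were called lower and 51.5% either way. It had 223, 172 and 159 there, against 296, 295 and 358 in WT (-0.78 ± 0.18, adjusted p = 0.0074). The groups did not overlap, as for 30.6% of all genes in that direction. TAS1B overlaps a gene on the opposite strand. TAS1A differed by 0.07 ± 0.26, TAS1C by 0.26 ± 0.28, TAS2 by -0.23 ± 0.23, TAS3 by 0.30 ± 0.23 and TAS4 by -0.43 ± 0.42. In the D153N line the 6 loci ran from -0.06 for TAS1B to 0.58 for TAS4, with 0 called, against 15.9% of all genes. In OE1, OE2 and dne1-1 0 were called, against 0.139%, 0.171% and 0.0185% of all genes. With 6 loci, 0 calls cannot be told from these shares.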

How the data were processed

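Seedling RNA was isolated in TRIZOL and made into libraries using Lexogen's SENSE mRNA kit, per the labels' protocols. The submitters' processing notes name build TAIR10, HISAT2 2.1.0, HTSeq, bcl2fastq 2.17.1.14 and DESeq2, without roles. The strand setting of read counting is not given in the sources used here. Values in the deposited table are a signal: the authors' normalized count, scaled by DESeq2 1.24.0 per the file headers. Its values were whole multiples of 1 step per library within 1e-06 for 100% of genes, so whole reads were recovered. The table also holds the authors' log2 fold changes and adjusted p-values, deposited per comparison and quoted only where named.

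The members and gene lists were chosen with earlier results of these data known. Genes reaching 10 normalized counts in 3 or more libraries were tested, two-sided, by limma's trend method (limma 3.58.1 under R 4.3.3) on log2(normalized count + 1), with Benjamini-Hochberg adjustment over all genes; the change understates that of low genes. The 12 libraries of batches 1 to 3, the 6 of batches 4 to 6, the 6 of batches 7 to 9 and, for differences of changes, all 24 were fitted separately. Alternatives used edgeR 4.0.16 and DESeq2 1.42.0 on recovered reads, other scalings, pseudocounts of 0.5 and 5, other filters, other sets of libraries, the batch as a block and each library left out. The mean of OE1 and OE2, batches 1 and 2 alone and RLE factors were added after seeing the data. The procedure was tested on simulated data with known changes.

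Batch labels pair the libraries outside batches 4 to 6. As a check, the deviations of libraries from their group means correlated at 0.14 to 0.68 over 18 same-batch pairs and at -0.58 to 0.22 over 36 other pairs in batches 1 to 3, and at 0.07 to 0.23 over 3 and -0.33 to 0.17 over 6 pairs in batches 7 to 9. The columns of vcs-6 carry no batch. All members are named, with up to 4 called genes per direction of the other small RNA list. Symbols, lengths, overlaps and sequences came from RefSeq TAIR10.1; microRNA sites were sought in member transcripts with up to 3 mismatches and 1 extra base. Python 3.11.15, pandas 2.3.3, numpy 2.4.6 and matplotlib 3.10.9 were used.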

Additional observations from a re-analysis of the deposited data

Results flagged for a closer look

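The results below are those where the changes of 2 lines differed by a test of the difference itself (limma, adjusted over all genes). Of the 34 other small RNA genes, at most 4 called per direction are given. For the libraries labelled vcs-6 minus the D153N line, 5 were called higher and 5 lower, against 26.3% of all genes. For those libraries minus the mean of OE1 and OE2, 2 were higher and 8 lower, against 35.5%. For the D153N line minus that mean, 0 were higher and 2 lower, against 2.15%. Each is a log2 difference, and its cause was not tested. Between the libraries labelled vcs-6 and the D153N line, AGO2 differed by 0.80, AGO9 by 4.11, AGO5 by 1.87, AGO3 by 1.83 and NRPD2 by 0.66, higher in the libraries labelled vcs-6. The AGO2 call held in 8 of the 12 fits that left out a library. AGO9 had 8 to 17 reads in the WT of the libraries labelled vcs-6 and 10 to 23 in the D153N line, so its difference is uncertain. AGO5 had 2 to 5 reads in the D153N line and 5 to 9 in its WT, too few for the filter in that comparison, and its difference lost the call without the library labelled vcs-6 that had 649 counts of AGO2 (adjusted p = 0.06). NRPD2 is uncertain because of the sequence it has in common with other transcripts. DRB3 at -2.23, DRB5 at -1.43, SDN1 at -1.25 and SDE5 at -0.98 were lower there.

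Between the libraries labelled vcs-6 and the mean of OE1 and OE2, AGO2 differed by 1.06, AGO9 by 3.50 and NRPD2 by 0.82. The AGO9 value rests on the same low WT counts, 8 to 17 reads, and is uncertain. RDR6 at -0.82, DCL3 at -0.67, TAS1B at -0.82, DRB3 at -2.29, DRB5 at -1.20, SDN1 at -1.13 and NRPE1 at -1.07 were lower in the libraries labelled vcs-6. Between the D153N line and the mean of OE1 and OE2, NRPE1 differed by -0.89 and ABH1 by -0.60.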

How the results depend on the processing

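In the libraries labelled vcs-6 the count of called members was 5 in all 9 alternatives and with any of the 6 libraries left out. In the D153N line it was 4, but 1 with library size as the only scaling, 1 with the batch as a replicate block, 2 with all 12 libraries of 2019 and 3 without a filter on low counts, where DCL1 was lost; RDR6 was called in each of the 10 alternatives. Leaving out 1 library gave 1 to 4 there, 1 without any of WT 7, 8 or 9 or D153N 14 or 15, which also leaves fewer libraries for the spread. The count was 0 to 1 for the libraries labelled vcs-6 minus the D153N line, 2 to 4 for those minus the mean of OE1 and OE2, and 0 to 1 for the D153N line minus that mean, where DESeq2 and the replicate block each gave 1; the cause was not tested. With the block no member was called in dne1-1, OE1 or OE2. No paired analysis was possible because the columns of vcs-6 carry no batch, for that line and its differences. Library size as the only scaling shifted the median of all genes by 0.12 in the libraries labelled vcs-6 and by 0.13 in their difference from the mean of OE1 and OE2, and by 0.10 in that of the D153N line. No called member changed sign in any alternative. Standard errors of the members against WT, which limit the size of change that could be called, ran from 0.08 to 0.23.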
